A study of Mus musculus with 4 samples.

Results

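The mRNA levels of 43 genes of the DNA damage checkpoint and of DNA repair were compared between primary rib chondrocytes that carried Cre against Senp6 and chondrocytes that did not. The genes were taken from a list of names, out of the 18298 genes that any of the samples had reads on, and the rule used no measured value of theirs, although the list was drawn up with earlier results of these data known. The list holds 8 checkpoint kinases and mediators, 8 genes of break recognition, 11 of homologous recombination, 8 of the Fanconi pathway, 5 of end joining and 3 of single-strand break repair. The files spelled 42 of the names as the list did. The remaining name, Claspn, was read as Clspn, the gene of claspin.

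The cells came from the cartilage of the ribs of E18.5 mouse embryos on a C57BL/6 background and were sequenced at passage 1, as 2 mutant samples (Mut) and 2 control samples (WT). Mut cells were Dermo1-Cre;Senp6f/f and WT cells were Senp6f/f, so the floxed Senp6 alleles were common to both groups and the Cre was not. Dermo1-Cre expresses the recombinase from the Twist2 locus in mesenchymal progenitors of bone and cartilage, so other cells of a rib culture may keep an intact Senp6. The embryos were not separated by sex. The reads on tested genes ranged from 21007449 in WT replicate 1 to 30983806 in Mut replicate 1. All 43 genes had at least 10 reads in every sample, with 64 reads for Xrcc4 in WT replicate 1 as the lowest count and 4291 for Topbp1 in Mut replicate 1 as the highest.

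DNA breaks and stalled replication forks are sensed by the kinases ATM and ATR, which activate CHK2 and CHK1 and through them hold the cell cycle and stabilise p53. Breaks are then joined directly by end joining or copied from the sister chromatid by homologous recombination, and the Fanconi proteins handle crosslinks between strands. Much of this machinery is controlled by phosphorylation, ubiquitin and SUMO on existing proteins, and several of its genes are transcribed mainly in cells that replicate their DNA. SENP6 removes SUMO chains from proteins, and the study examined DNA damage and its repair in cells that lack it, which makes the mRNA of the repair machinery a comparison of interest. The files hold mRNA levels and no measure of a modified protein such as γH2AX.

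Senp6 itself was at 55.4 and 88.6 CPM (counts scaled to an equal library size with TMM factors) in WT replicates 1 and 2 and at 59.3 and 38.8 in Mut replicates 1 and 2, and the groups overlapped (edgeR log2 fold change −0.56 ± 0.28 SE, adjusted p = 0.41). Counts over a whole gene do not separate the floxed exons from the others, so this value checks the labels only in part. Defining chondrocyte genes were present, with Col2a1, the main collagen of cartilage, at 609 and 659 RPKM in WT and at 334 and 445 in Mut. Both Mut samples lay below both WT samples for 8 of 8 chondrocyte markers (22.8% of all tested genes), whose summed level was 4150 to 4184 CPM in WT and 2052 to 2614 in Mut. For skeletal muscle both Mut samples were above both WT samples for 4 of 6 markers (25.4% of all tested genes), with summed levels of 135 and 33.3 CPM in WT and 197 and 210 CPM in Mut, and for macrophages both were below for 5 of 5, with 22.8 and 19.8 CPM in WT and 9.28 and 13.8 CPM in Mut. Both were also below for 4 of 5 osteoblast markers and above for 1, with 987 and 956 CPM in WT and 850 and 1053 CPM in Mut. For fibroblasts both were below for 3 of 4 markers, with 44200 and 29260 CPM in WT and 28270 and 18390 CPM in Mut. For the 3 endothelial markers both were above for 1 and below for 0, at 2.17 to 3.44 CPM in all samples. The marker counts hold only genes with enough reads to be tested, out of 7 osteoblast and 6 macrophage markers listed. No erythroid marker was tested. The part of these differences in the values below was not tested, and in bulk RNA fewer cells of a type and less RNA per cell cannot be told apart. Libraries were made without a strand mark, so reads of genes that overlap on opposite strands cannot be told apart either.

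E2F factors switch on many genes of DNA replication at the start of S phase, and a group of the repair genes carried E2F-type words at their starts. The words searched, on both strands, were TTTCCCGC, TTTCGCGC, TTTGCCGC and TTTGGCGC, in windows from 250 bases before to 50 bases after each annotated start (RefSeq, GRCm38.p6). A window was found for 34 of the 43 genes, 36 windows in all, and none was given for Prkdc, Xrcc2, H2afx, Exo1, Rad50, Fancd2, Rbbp8, Nbn and Wrn. An E2F word was present in 8 of the 36 windows (22.2%), against 3.79% of the windows of all tested genes. The 8 stretches follow, 5′ to 3′ on the strand of the gene, with the word in capitals. They are shown because their genes span every role except single-strand break repair.
Chek2, chr5:110839821-110839848 (+): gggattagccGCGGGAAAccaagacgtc
Clspn, chr4:126556991-126557018 (+): ccgcgtctggGCGCGAAAgctcgaactt
Topbp1, chr9:103305188-103305215 (+): cgctcggttgGCGCGAAAgtcggttccc
Mdc1, chr17:35841472-35841499 (+): cttcagcctgTTTCCCGCcggtagccgc
Bard1, chr1:71103164-71103191 (-): cgccgctcagTTTCCCGCtcaggaagtt
Brca2, chr5:150522443-150522470 (+): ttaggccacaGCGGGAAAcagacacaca
Fancg, chr4:43010336-43010363 (-): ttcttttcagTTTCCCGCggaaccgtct
Xrcc6, chr15:82016313-82016340 (+): gggggtggaaGCGGGAAAtgcgagtggg

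TTTCCCGC, on either strand, was the word in 6 of the 8 stretches, and TTTCGCGC, read on the other strand, was the word in Clspn and Topbp1. The Clspn word began 22 bases into the transcript and the other 7 lay before the start, between 9 and 209 bases upstream. A word match is a description of these letters and does not show that a factor binds there. The CCAAT box, searched as CCAAT on both strands, was in 55.6% of the windows of the repair genes against 37.4% of those of all tested genes. The CHR word TTTGAA, which marks many genes of mitosis, was in 5.56% against 12.0%. In a list of 24 proliferation genes, 19 had a window. Of their 20 windows, 30.0% held an E2F word and 35.0% the CHR word.

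The levels of the repair genes spanned from 0.804 RPKM for Bard1 in WT replicate 1 to 49.3 RPKM for H2afx in the same sample, with a median over the genes of 4.51 RPKM. H2afx, which encodes the histone variant phosphorylated around breaks, Parp1, the sensor of single-strand breaks, Xrcc1, its scaffold, and Topbp1, the activator of ATR, lay between 18.1 and 49.3 RPKM in every sample. Palb2 and Bard1, both partners of the BRCA proteins, and Prkdc, the catalytic kinase of end joining, were at most at 1.83 RPKM in any sample. RPKM is the read count divided by the gene length and by the reads counted on genes, so it can be compared between genes.

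**Figure D1:**
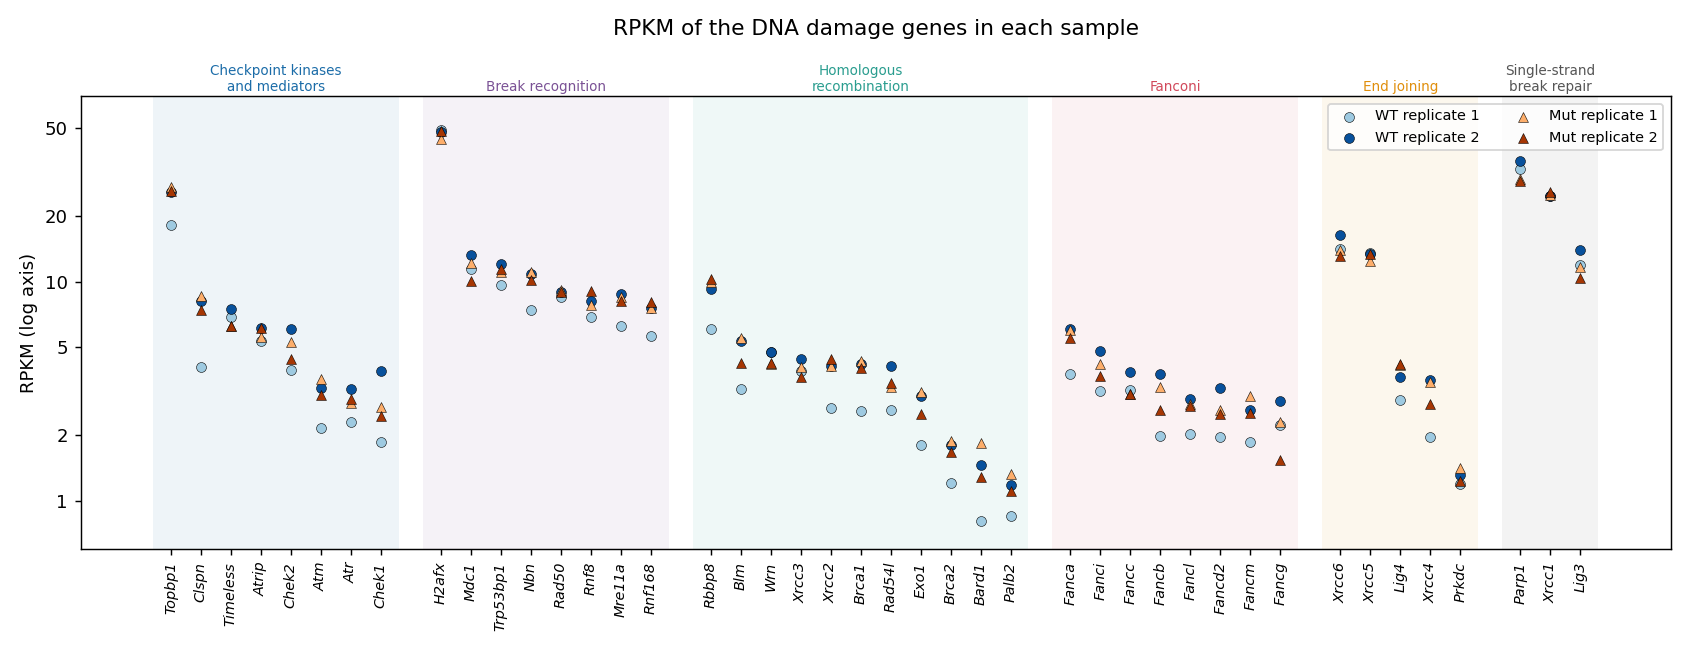
Deposited RPKM (log axis) of each of the 43 genes in WT replicates 1 and 2 (circles) and Mut replicates 1 and 2 (triangles), grouped by role and ordered by mean level within a role. WT replicate 1 (light circles) is the lowest point for most checkpoint, recombination and Fanconi genes.

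None of the 43 genes differed between Mut and WT in the quasi-likelihood test of edgeR with adjustment over 14123 tested genes. No gene of the whole table passed an adjusted p of 0.05 in that test either (0.0% higher and 0.0% lower, smallest adjusted p 0.0512), so the count alone does not set the repair genes apart. At an unadjusted p under 0.05 the test held 0 of the 43 genes and 15.6% of all genes tested. DESeq2 called 0 of the 43, against 3.07% of all genes as higher and 1.86% as lower. The smallest adjusted p of a repair gene in edgeR was 0.37, for Parp1.

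The median log2 fold change of the repair genes (Mut over WT) was 0.015, beside 0.0097 over all tested genes, with 24 genes above 0 and 19 below. Single values ran from −0.44 for Fancg to 0.43 for Bard1. The 95% interval of every one of the 43 differences spanned 0, with a median half-width of 0.47 on the log2 scale. For 39 genes the interval excluded both a doubling and a halving. A doubling was within the interval of Clspn and of Bard1, and a halving was within that of Chek1 and of Fancg.

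**Figure D2:**
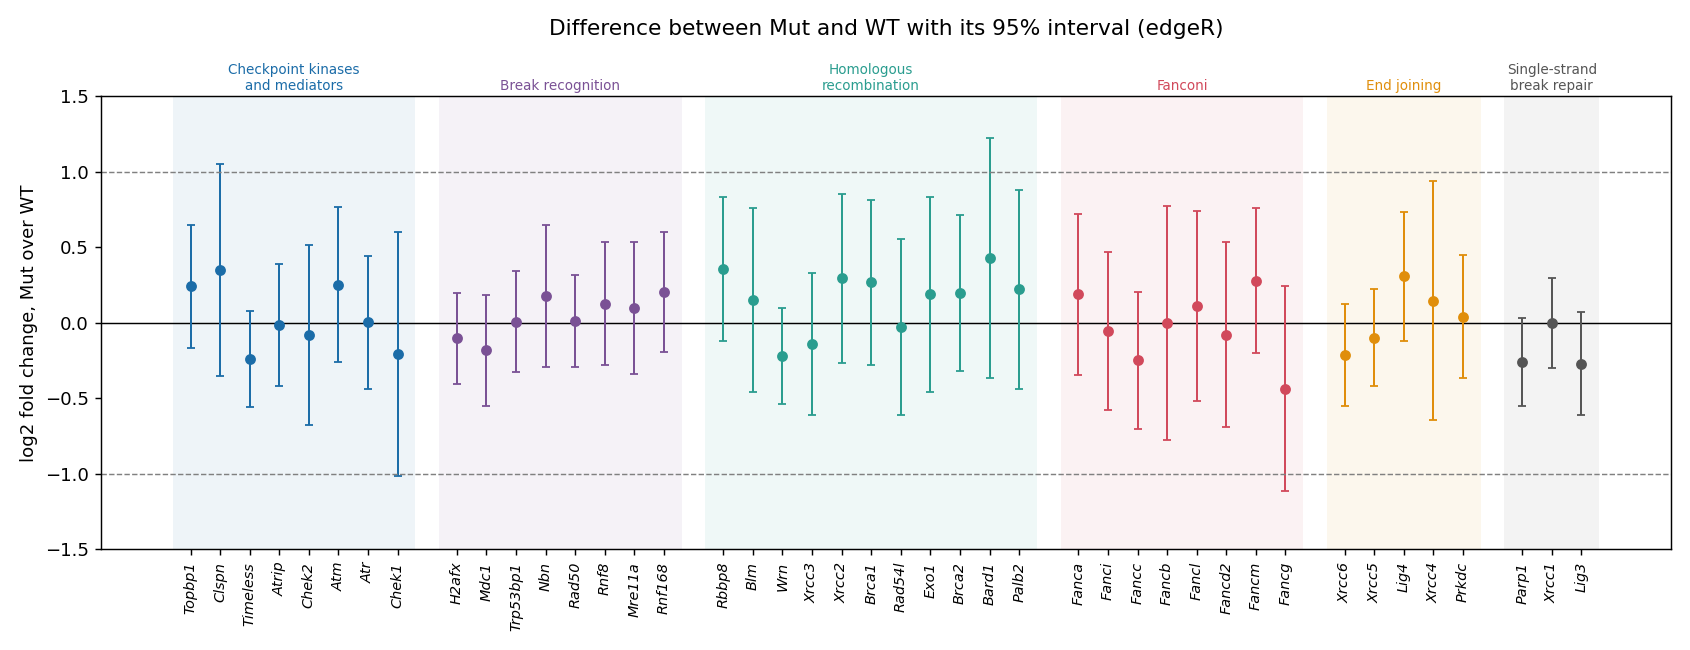
Log2 fold change (Mut over WT, edgeR) of each gene with its 95% interval, by role, and dashed lines at a doubling and a halving. All 43 intervals cross 0, and 39 lie between the dashed lines.

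Both Mut samples lay above both WT samples in CPM for 3 genes (Rnf168, Rbbp8 and Lig4), where 25.4% of all tested genes did so. Both Mut samples lay below both WT samples for 8 genes (Timeless, H2afx, Wrn, Fancc, Xrcc5, Xrcc6, Lig3 and Parp1), against 22.8% of all genes. The groups therefore did not overlap for 11 of 43 repair genes, against 48.1% of all genes. In the deposited RPKM, which lack the TMM scaling, 5 genes had both Mut samples above and 6 had both below, against 28.3% and 19.2% of all genes. Rbbp8 and Lig4 were above on both scales and Timeless, Wrn, Fancc, Xrcc6, Lig3 and Parp1 were below on both, while Rnf168, H2afx and Xrcc5 overlapped in RPKM. An exact two-sided permutation test of 2 against 2 samples cannot give a p below 0.333, so no single gene was tested that way.

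Among the checkpoint genes the median log2 fold change was −0.006, with 4 genes above 0 and 4 below. Atm, the kinase activated by double-strand breaks, was at 2.14 and 3.27 RPKM in WT and at 3.58 and 3.04 in Mut (log2 fold change 0.25 ± 0.21 SE, adjusted p = 0.64). Atr, the kinase activated by single-stranded DNA at stalled forks, was at 2.29 and 3.25 RPKM in WT and at 2.79 and 2.91 in Mut (0.0026 ± 0.18, adjusted p = 0.995). Both Mut samples of Atr lay between the WT samples, and for Atm the WT samples were on either side of Mut replicate 2. Chek1, the kinase downstream of ATR, was at 1.85 and 3.90 RPKM in WT and at 2.67 and 2.44 in Mut (−0.21 ± 0.34, adjusted p = 0.82). Chek2, the kinase downstream of ATM, was at 3.94 and 6.06 RPKM in WT and at 5.28 and 4.43 in Mut (−0.08 ± 0.25, adjusted p = 0.91). For both kinases the Mut values fell inside the range of the WT values.

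Clspn, the adaptor that brings CHK1 to ATR, was at 4.09 and 8.13 RPKM in WT and at 8.60 and 7.38 in Mut (0.35 ± 0.29, adjusted p = 0.63). Topbp1, the direct activator of ATR, was at 18.1 and 25.5 RPKM in WT and at 27.1 and 25.8 in Mut (0.24 ± 0.17, adjusted p = 0.57). In both genes WT replicate 1 stood below the other 3 samples, which were close to each other. Timeless, a fork protection protein, was at 6.91 and 7.52 RPKM in WT and at 6.28 in both Mut samples (−0.24 ± 0.13, adjusted p = 0.45). Atrip, the partner of ATR, was at 5.33 and 6.16 RPKM in WT and at 5.56 and 6.15 in Mut (−0.015 ± 0.17, adjusted p = 0.98), and 16.0% of its annotated exon bases are shared with Trex1.

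Among the genes of break recognition the median log2 fold change was 0.057, with 6 genes above 0 and 2 below. H2afx was at 49.3 and 48.1 RPKM in WT and at 44.6 and 48.8 in Mut (−0.10 ± 0.13, adjusted p = 0.76). In the poly(A)-selected RNA that was sequenced, its level thus spanned a narrow range over the 4 samples. Rad50, Mre11a and Nbn encode the complex that binds broken ends. Rad50 was at 8.46 and 8.95 RPKM in WT and at 9.11 and 8.99 in Mut, with a log2 fold change of 0.015 ± 0.13. Mre11a was at 6.26 and 8.81 RPKM in WT and at 8.48 and 8.11 in Mut (0.099 ± 0.18), and Nbn was at 7.41 and 10.8 RPKM in WT and at 11.1 and 10.2 in Mut (0.18 ± 0.20). WT replicate 1 was the lowest sample of Mre11a and Nbn, while the 4 values of Rad50 were close together.

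The ubiquitin ligases that mark chromatin at breaks gave log2 fold changes of 0.13 ± 0.17 for Rnf8 and 0.20 ± 0.17 for Rnf168 (adjusted p = 0.78 and 0.62). Rnf168 was at 5.66 and 7.60 RPKM in WT and at 7.58 and 8.11 in Mut, so Mut replicate 1 and WT replicate 2 had nearly the same RPKM. Mdc1, the mediator that reads phosphorylated H2AX, was at 11.4 and 13.2 RPKM in WT and at 12.2 and 10.1 in Mut (−0.18 ± 0.15, adjusted p = 0.63). Trp53bp1, the 53BP1 gene that favours end joining, was at 9.66 and 12.1 RPKM in WT and at 11.0 and 11.4 in Mut (0.0073 ± 0.14, adjusted p = 0.99). Both Mut values of Trp53bp1 lay between the WT values.

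Homologous recombination had the highest median of the 6 roles, 0.20, with 8 of 11 genes above 0, and none of the 11 passed the test. This median was −0.042 without WT replicate 1, 0.50 without WT replicate 2 and 0.072 without Mut replicate 1, so its sign and size rested on single samples. Rbbp8, the CtIP gene that starts the resection of ends, was at 6.10 and 9.27 RPKM in WT and at 9.98 and 10.3 in Mut (0.36 ± 0.20, adjusted p = 0.46). Both Mut samples of Rbbp8 were above both WT samples, and the gap between Mut and WT replicate 2 was small beside the gap between the WT samples. Exo1, a nuclease of resection, was at 1.80 and 3.01 RPKM in WT and at 3.14 and 2.48 in Mut (0.19 ± 0.27, adjusted p = 0.80).

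Brca1, which directs ends into recombination, was at 2.56 and 4.21 RPKM in WT and at 4.35 and 4.02 in Mut (0.27 ± 0.23, adjusted p = 0.64). Its partner Bard1 was at 0.804 and 1.45 RPKM in WT and at 1.83 and 1.28 in Mut (0.43 ± 0.33, adjusted p = 0.60). Brca2, a core protein of recombination, was at 1.20 and 1.80 RPKM in WT and at 1.87 and 1.66 in Mut (0.20 ± 0.22, adjusted p = 0.72). In the 3 genes WT replicate 1 was the lowest sample and WT replicate 2 lay between the Mut samples. Palb2, which links BRCA1 to BRCA2, and Xrcc2, another recombination gene, also had their lowest value in WT replicate 1, with log2 fold changes of 0.22 ± 0.28 and 0.30 ± 0.23.

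The other genes of recombination gave smaller values or values below 0. Rad54l, a motor protein of recombination, was at 2.60 and 4.11 RPKM in WT and at 3.31 and 3.46 in Mut (−0.028 ± 0.24). Of the RecQ helicases, Blm gave 0.15 ± 0.25 and Wrn −0.22 ± 0.13 (adjusted p = 0.83 and 0.49). Wrn was at 4.79 and 4.78 RPKM in WT and at 4.21 and 4.24 in Mut, a small step between 2 tight pairs. Xrcc3 was at −0.14 ± 0.20 (adjusted p = 0.79).

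Among the Fanconi genes the median log2 fold change was −0.027, with 3 genes above 0 and 5 below. Fancd2 and Fanci encode the pair of proteins that is ubiquitinated on chromatin at a crosslink. Fancd2 was at 1.95 and 3.27 RPKM in WT and at 2.59 and 2.49 in Mut (−0.079 ± 0.26, adjusted p = 0.92), and Fanci was at 3.17 and 4.82 RPKM in WT and at 4.22 and 3.69 in Mut (−0.053 ± 0.22, adjusted p = 0.93). For both genes the Mut values lay inside the range of the WT values. Fancl, the ubiquitin ligase of the pathway, gave 0.11 ± 0.26, and Fancm, the translocase that recruits the core complex, gave 0.28 ± 0.20 (adjusted p = 0.88 and 0.57).

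The core complex genes Fanca, Fancb, Fancc and Fancg gave values on both sides of 0. Fanca was at 3.79 and 6.09 RPKM in WT and at 6.03 and 5.55 in Mut (0.19 ± 0.22, adjusted p = 0.74). Fancb was at 1.96 and 3.78 RPKM in WT and at 3.29 and 2.60 in Mut (−0.0014 ± 0.32, adjusted p = 0.999). Fancg was at 2.20 and 2.84 RPKM in WT and at 2.29 and 1.53 in Mut (−0.44 ± 0.28, adjusted p = 0.53). Mut replicate 1 of Fancg was within the range of WT, and the low mean of Mut came from replicate 2. Fancc was at 3.21 and 3.86 RPKM in WT and at 3.08 and 3.05 in Mut (−0.25 ± 0.19, adjusted p = 0.60), and 18.6% of its annotated exon bases are shared with other transcripts on the opposite strand.

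Among the end joining genes the median log2 fold change was 0.041. Xrcc5 and Xrcc6 encode Ku80 and Ku70, the ring that holds a broken end. Xrcc5 was at 13.5 and 13.3 RPKM in WT and at 12.4 and 13.4 in Mut (−0.099 ± 0.13, adjusted p = 0.78), and Xrcc6 was at 14.1 and 16.3 RPKM in WT and at 13.9 and 13.1 in Mut (−0.21 ± 0.14, adjusted p = 0.54). Prkdc, the kinase bound by Ku, was at 1.19 and 1.31 RPKM in WT and at 1.42 and 1.23 in Mut (0.041 ± 0.17, adjusted p = 0.93). Both Mut samples of Xrcc6 lay below both WT samples in CPM and in RPKM. The groups overlapped for Prkdc, and for Xrcc5 in RPKM only. Lig4, the ligase that seals the joint, was at 2.87 and 3.68 RPKM in WT and at 4.16 and 4.18 in Mut (0.31 ± 0.18, adjusted p = 0.48), with both Mut samples above both WT samples. Xrcc4, the partner of that ligase, was at 1.96 and 3.54 RPKM in WT and at 3.48 and 2.77 in Mut (0.15 ± 0.33, adjusted p = 0.88).

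Single-strand break repair had the lowest median of the 6 roles, −0.26, from 3 genes. Parp1 was at 32.5 and 35.4 RPKM in WT and at 29.6 and 28.7 in Mut (−0.26 ± 0.12, adjusted p = 0.37), a ratio of 0.834 with a 95% interval from 0.681 to 1.02. Lig3, the ligase of this route, was at 11.9 and 13.9 RPKM in WT and at 11.6 and 10.4 in Mut (−0.27 ± 0.14, adjusted p = 0.43). Both Mut samples were below both WT samples for these 2 genes, and Lig3 shares 25.1% of its annotated exon bases with Rffl on the opposite strand. Xrcc1 was at 24.5 and 24.7 RPKM in WT and at 24.9 and 25.6 in Mut (−0.0028 ± 0.12, adjusted p = 0.99). The 4 values of Xrcc1 were close together.

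The larger contrast in these genes lay between the WT samples. WT replicate 1 was the lowest of the 4 samples for 29 of the 43 genes, against 36.8% of all tested genes, and WT replicate 2 was above WT replicate 1 for 39 of 43, against 50.4%. In the deposited RPKM the first count was 32, against 43.1% of all genes. The median log2 ratio of WT replicate 2 over WT replicate 1 was 0.44 in the repair genes and 0.0051 over all tested genes. Between the Mut samples the median (replicate 2 over replicate 1) was −0.13. For 31 of the 43 genes the difference between Mut and WT was smaller than the difference between the WT samples. The former compares means of 2 samples and the latter single samples, which vary more. The share over all genes was not counted, so the 31 does not set the repair genes apart.

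The contrast of the WT samples was uneven over the roles. The median log2 ratio was 0.58 for homologous recombination, 0.51 for the Fanconi genes, 0.50 for the checkpoint genes, 0.22 for break recognition, 0.15 for end joining and 0.065 for single-strand break repair. Single genes ran up to 2.02-fold for Chek1, 1.91-fold for Clspn and 1.85-fold for Fancb in CPM. H2afx, Wrn, Xrcc5 and Xrcc1 were the 4 genes with WT replicate 1 above WT replicate 2, with ratios of replicate 2 over replicate 1 of 0.938 to 0.968. The 8 genes with an E2F word had a median log2 ratio of 0.48 and the 26 genes without one of 0.42, and the ranges of both sets overlapped, from 0.15 to 0.93 and from −0.078 to 1.02.

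**Figure D3:**
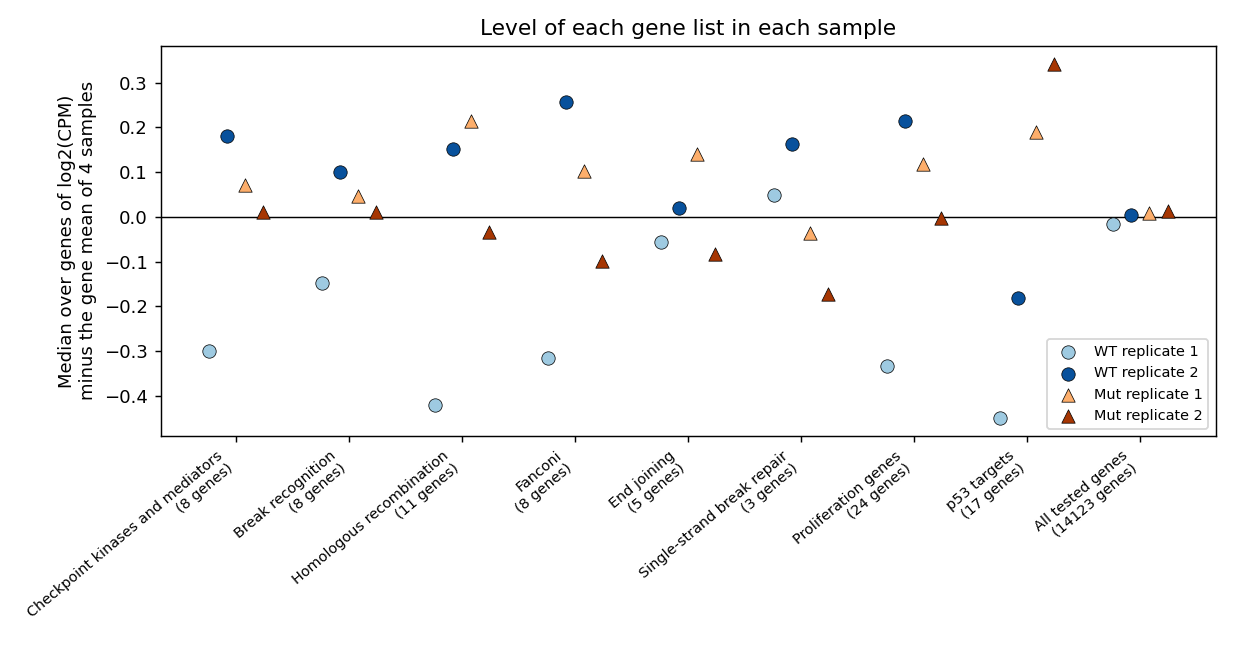
Median over the genes of a list of log2 CPM minus the mean of the same gene over the 4 samples, for each role, the proliferation list, the p53 target list and all tested genes. WT replicate 1 is at −0.30 for the checkpoint genes, −0.42 for recombination, −0.31 for Fanconi and −0.33 for the proliferation genes, and the all-gene medians are between −0.015 and 0.014.

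A list of 24 proliferation genes showed the same order of samples. WT replicate 2 was above WT replicate 1 in 24 of 24 genes, with a median log2 ratio of 0.54, and WT replicate 1 was the lowest sample for 23. The summed level of the list was 1768 and 2592 CPM in WT replicates 1 and 2, and 2475 and 2251 in Mut replicates 1 and 2. That of the 43 repair genes was 1172 and 1418 in WT, and 1352 and 1254 in Mut. Mki67, a marker of dividing cells, was at 25.3 and 38.7 RPKM in WT and at 39.3 and 31.7 in Mut, and Top2a, the topoisomerase of mitosis, was at 27.8 and 46.5 in WT and at 39.3 and 39.2 in Mut. The part of dividing cells in the contrast of the WT samples was not tested.

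Since both groups are small, the comparison was repeated with each WT sample left out. A lone WT sample is then assumed to vary as the Mut pair does. Without WT replicate 2, 6 of the 43 genes were called higher in Mut by edgeR (14.0%), against 9.25% of all genes called higher and 10.3% called lower, and the median log2 fold change of the 43 genes was 0.28. These were Clspn (0.87, adjusted p = 0.0038), Rbbp8 (0.63, adjusted p = 0.010), Brca1 (0.61, adjusted p = 0.019), Topbp1 (0.45, adjusted p = 0.034), Atm (0.53, adjusted p = 0.037) and Fanca (0.51, adjusted p = 0.040). Without WT replicate 1, 0 of the 43 genes were called, against 3.55% of all genes called higher and 0.999% called lower, and the median was −0.10. Clspn was then at −0.041, Brca1 at −0.026, Atm at −0.0025 and Fanca at −0.091, while Rbbp8 was at 0.11 and Topbp1 at 0.035. With a Mut sample left out 0 of the 43 were called, against 1.98% of all genes higher and 0.634% lower without Mut replicate 1 and 0.496% and 0.27% without Mut replicate 2.

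The sign of a repair gene thus depended for many on which WT sample stood for the group. The log2 fold change was above 0 without WT replicate 2 and below 0 without WT replicate 1 for 21 of the 43 genes. It was above 0 in both cases for 9 genes and below 0 in both for 12, with 1 gene, Xrcc1, in the opposite order. These counts were not made over all tested genes, so they do not set the repair genes apart. The direction of a change of sign follows from which WT sample was higher, replicate 2 for 39 of the 43 genes. Chek1 showed the widest swing, from 0.37 without WT replicate 2 to −0.63 without WT replicate 1. Parp1 was steady, at −0.26 and −0.30, and so was Timeless, at −0.24 and −0.28.

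**Figure D4:**
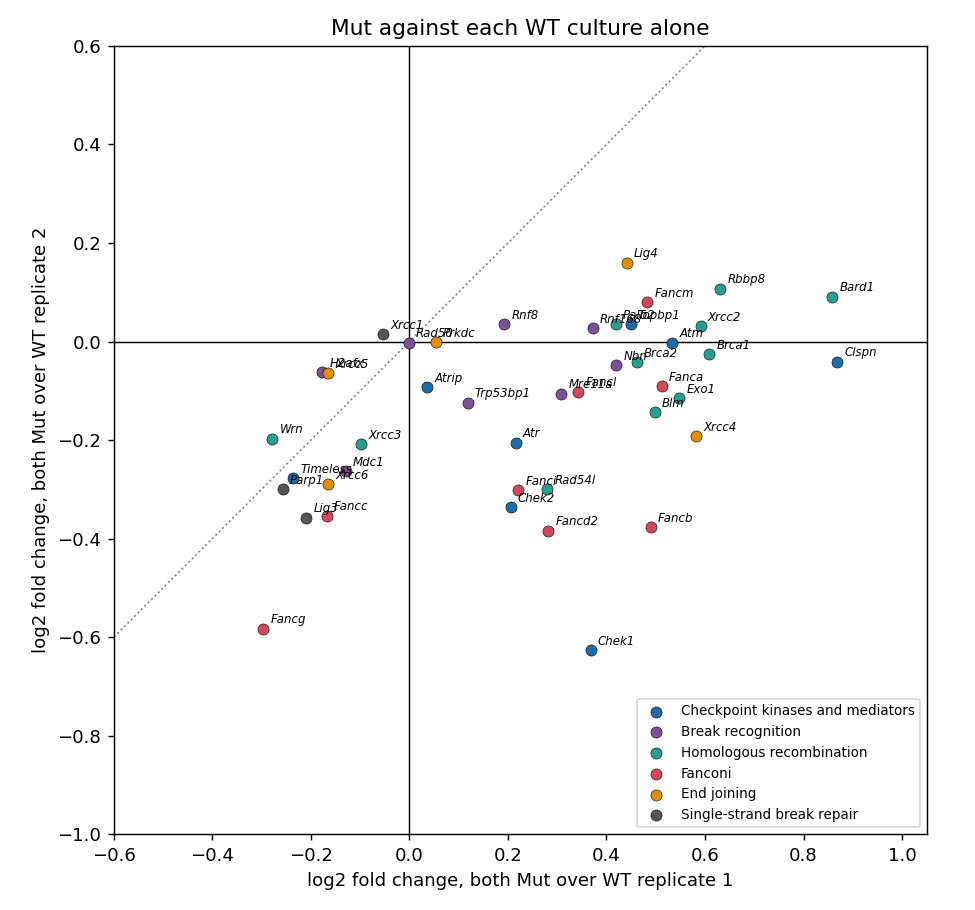
Log2 fold change of both Mut samples over WT replicate 1 alone (x axis) against that over WT replicate 2 alone (y axis), 1 point a gene, coloured by role, with the line of equal values dotted. Both axes share the Mut samples. The lower right quadrant holds 21 genes, above 0 on the x axis and below 0 on the y axis, and the share over all genes was not counted.

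p53 targets, which the checkpoint kinases act on through p53, had another order of samples. In a list of 17 such genes the median log2 fold change was 0.53. It was above 0 for 15 genes and below 0 for 2, with the lowest at −0.73. Both Mut samples were above both WT samples for 14 and below for 1, against 25.4% and 22.8% of all tested genes. Cdkn1a, the inhibitor of cyclin-dependent kinases known as p21, was at 57.7 and 84.6 RPKM in WT and at 122 and 176 in Mut (1.02 ± 0.23, adjusted p = 0.11 in edgeR). None of the 17 passed the test in edgeR, and 10 had an unadjusted p under 0.05, against 15.6% of all genes. DESeq2 called 8, against 3.07% of all genes as higher and 1.86% as lower. Zmat3, an RNA-binding target of p53, was at 10.2 and 14.4 RPKM in WT and at 20.2 and 23.2 in Mut (0.78 ± 0.17, adjusted p = 0.12), and Btg2, an antiproliferative gene, was at 7.78 and 9.32 in WT and at 13.5 and 20.5 in Mut (0.95 ± 0.21, adjusted p = 0.12). The genes encoding ATM, ATR and the checkpoint kinases had no such separation of the groups.

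Of 95 other DNA repair genes, 93 had a value and passed the filter on low counts, and Faap100 and Faap24 were not found. None of the 93 passed the test, and 5 had an unadjusted p under 0.05, against 15.6% of all genes. Their median log2 fold change was 0.01, with both Mut samples above both WT samples for 14 genes (25.4% of all tested genes) and below for 24 (22.8% of all tested genes). The lowest adjusted p belonged to 2 genes of synthesis across lesions. Polk, a translesion polymerase, was at 3.95 and 4.61 RPKM in WT and at 5.91 and 6.48 in Mut (0.49 ± 0.15, adjusted p = 0.19). Rev1, the scaffold of these polymerases, was at 4.16 and 4.94 RPKM in WT and at 6.39 and 6.58 in Mut (0.47 ± 0.15, adjusted p = 0.20). Dna2, a nuclease of resection, was at 0.554 and 1.23 RPKM in WT and at 1.85 and 1.62 in Mut (0.91 ± 0.37, adjusted p = 0.30).

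Of 17 base excision repair genes, both Mut samples were below both WT samples for 7 and above for 0, with a median of −0.17. The corresponding shares over all tested genes were 22.8% and 25.4%, and this list is the one of the 9 with the lowest median. Mutyh, a glycosylase that acts on mispaired adenine, was at 2.88 and 3.84 RPKM in WT and at 2.10 and 2.30 in Mut (−0.65 ± 0.25, adjusted p = 0.28). Neil2, another glycosylase, was at 0.348 and 0.280 RPKM in WT and at 0.152 and 0.0925 in Mut (−1.37 ± 0.54, adjusted p = 0.30), with few reads. The list with the highest median, 0.18, was that of 11 genes of the checkpoint clamp, of RPA and of the kinase targets, with 8 above 0, both Mut samples above for 2 and below for 1. In it Rad9a, a clamp subunit, was at 15.3 and 22.9 RPKM in WT and at 26.1 and 23.9 in Mut (0.35 ± 0.20, adjusted p = 0.46). Some values depended on the WT sample left out, and the genes shown for this were picked for their size after their values were seen. Without WT replicate 2 the log2 fold change was 1.55 for Dna2, 0.61 for Brip1, 0.51 for Usp1 and 0.61 for Rad9a. It was 0.48 for Rpa1, 0.63 for Tipin and 0.51 for Wee1. Without WT replicate 1 the values were, in the same order, 0.47, −0.11, −0.21, 0.11, −0.038, −0.0064 and 0.10.

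Overlap of annotated exons may limit some of these values. Of the 43 genes, 20 share an exon base with another annotated gene in GENCODE, and 9 share over 10% of their exon bases. Beyond Atrip, Fancc and Lig3, these are Fanci (16.0%, with Polg), Rad54l (15.4%, with Lrrc41), Trp53bp1 (15.0%, with Tubgcp4), Fancl (13.7%, with Vrk2), Rnf8 (13.2%) and Fanca (10.5%, with Zfp276). The percentages are over all exon bases in GENCODE, which can exceed the gene length behind the deposited RPKM. For Fancc these were 8359 and 3169 bases, so the shared part of the counted length is not known. How the counting assigned reads in the shared bases is not given in the sources used here.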

How the data were processed

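Primary rib chondrocytes of 2 WT and 2 Mut samples were sequenced by a service from poly(A)-selected RNA. Per gene and sample, the authors deposited an unscaled read count, its RPKM (scaled by gene length and by the reads counted on genes) and the percent of the length that reads covered. A gene that a sample does not list was taken as 0 reads there. The submitters' processing notes name mm9 and SAMtools. The aligner, the counting tool and the annotation are not given in the sources used here.

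Counts were tested with edgeR 4.0.16 in R 4.3.3 (quasi-likelihood, TMM, robust). A gene needed 10 counts in 2 of the samples, which 14123 genes had, and p values were adjusted over all of these by Benjamini-Hochberg, with a threshold of 0.05. TMM factors were 0.966 to 1.03. SE were derived from the F statistic, and non-overlap was read from TMM-scaled CPM. The reads on tested genes were 21007449 and 26130503 in WT and 30983806 and 28222961 in Mut. Alternatives were DESeq2 1.42.0, RLE size factors, no filter, a filter of 10 counts in every sample, limma 3.58.1 on log2 RPKM with pseudocounts of 1 and 0.1, a block for the replicate number, and each sample left out in turn. The deposited RPKM were added as a scale for the non-overlap counts after seeing the data. The scripts were tested on simulated data. Promoter windows were those of RefSeq on GRCm38.p6, and exon overlaps came from GENCODE by gene name, so no mm9 coordinate was used.

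The genes and lists were chosen with earlier results of these data known. Every one of the 43 genes is covered, and of the other lists those named are check genes, genes with the smallest adjusted p, and genes called without WT replicate 2, the last chosen after their values were seen. Some genes of the other lists are not reported here. Beyond n = 2 mice in the design text, nothing says that the samples came from separate cultures, so p values measure the spread between these samples. The replicates of a group differed far beyond sampling noise (chi-square over its degrees of freedom 49.7 for WT and 24.0 for Mut), so each was counted separately.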

Additional observations from a re-analysis of the deposited data

How the results depend on the processing

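In edgeR, DESeq2, RLE size factors, both other filters, both limma fits and the replicate block, 0 of the 43 repair genes were called. Edge cases of power matter here, since several of these fits called 0 of all tested genes too. That held for edgeR with TMM or RLE factors, the filter of 10 counts in every sample and both limma fits. A count of 0 there does not set the repair genes apart. Without a filter, 1.23% of all genes were called higher and 0.333% lower. Leaving out single samples gave 0 to 6 genes called higher, all 6 without WT replicate 2. Over these fits the median log2 fold change of the 43 genes ranged from −0.10 to 0.28, that of the checkpoint genes from −0.15 to 0.29, of break recognition from −0.055 to 0.16, of homologous recombination from −0.042 (without WT replicate 1) to 0.50 (without WT replicate 2), of Fanconi from −0.33 to 0.31, of end joining from −0.065 to 0.16 and of single-strand break repair from −0.30 to −0.17. Of the other repair genes, 0 to 11 were called higher and 0 to 1 lower. The 11 and the 1, out of 92 tested, came from the fit without WT replicate 2, with a lone WT sample. That fit called 9.25% of all genes higher and 10.3% lower, so the 11 alone does not set these genes apart. In RPKM, 5 in place of 3 genes had both Mut samples above. Many single genes changed sign, among them some with larger values such as Clspn, Brca1, Atm and Chek1. With a sample left out, the ranges were −0.0025 to 0.53 for Atm, −0.21 to 0.22 for Atr, −0.093 to 0.045 for Atrip, −0.041 to 0.87 for Clspn, −0.63 to 0.37 for Chek1 and −0.34 to 0.21 for Chek2. They were −0.12 to 0.12 for Trp53bp1, −0.0088 to 0.048 for Rad50, −0.11 to 0.31 for Mre11a and −0.048 to 0.42 for Nbn. In recombination they were −0.11 to 0.55 for Exo1, −0.026 to 0.61 for Brca1, −0.042 to 0.46 for Brca2, −0.30 to 0.28 for Rad54l and −0.14 to 0.50 for Blm. For the other roles they were −0.091 to 0.51 for Fanca, −0.38 to 0.49 for Fancb, −0.38 to 0.28 for Fancd2, −0.30 to 0.22 for Fanci, −0.10 to 0.34 for Fancl, −0.081 to 0.16 for Prkdc, −0.19 to 0.58 for Xrcc4 and −0.054 to 0.015 for Xrcc1. Atr, Trp53bp1 and Rad50 were at −0.012, −0.0076 and −0.0010 in DESeq2 and at −0.012, −0.0075 and −0.0010 with RLE size factors, and Atr and Trp53bp1 at −0.0087 and −0.0043 without a filter. In limma with pseudocounts of 1 and 0.1, Atrip was at 0.025 and 0.029, Rad54l at 0.031 and 0.047, Fancb at 0.062 and 0.096, Fanci at 0.0060 and 0.012 and Xrcc1 at 0.038 and 0.040, and Fancd2 was at 0.0050 with 0.1. The cause of these changes was not tested.

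With the replicate number as a block, Rad54l was at 0.0025 and Fancb at 0.049, the median of the 43 genes was 0.036, and 0 of them were called, against 84 of all genes higher and 33 lower. The labels do not say whether the numbers pair the samples. The correlation of the replicate differences of WT and Mut across genes was −0.042, which cannot decide this. Cdkn1a, outside the 43, had an adjusted p of 0.046 in the block fit of edgeR, and of 0.0014 to 0.22 with a sample left out.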
